A study of Homo sapiens with 6 samples.

Results

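The endoplasmic reticulum (ER) genes described here are 35 genes of protein folding, degradation, signal peptide cleavage and stress sensing, taken as a fixed list of gene symbols from a table of 42902 genes. All 35 were in the table, and 34 had enough counts to be tested. The cells were PANC-1, an established human line from a pancreatic ductal carcinoma. The control group, shNC, carried a non-targeting short hairpin RNA and is labelled WT. The other group, shRRM2, carried a short hairpin against RRM2, the small subunit of ribonucleotide reductase, and the study asked which genes lie downstream of RRM2. Each group had 3 libraries, made with a directional kit from polyadenylated RNA; in such bulk RNA a change in cell numbers and a change in RNA per cell cannot be told apart. The labels name neither the number of hairpins or clones nor separate cultures, so a p-value reflects only how these libraries vary, and that variation may be technical.

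Proteins that enter the secretory pathway pass through the Sec61 channel into the ER, lose their signal peptide to the signal peptidase complex, receive glycans and disulfide bonds, and are folded by chaperones such as BiP (HSPA5), calnexin and calreticulin. Proteins that fail to fold are moved back to the cytosol and degraded by the proteasome, a route called ER-associated degradation (ERAD). When unfolded proteins build up, the sensors IRE1 (ERN1), PERK (EIF2AK3) and ATF6 start the unfolded protein response. IRE1 splices the XBP1 mRNA, PERK phosphorylates eIF2alpha and so favours translation of ATF4, and ATF6 is cut by proteases of the Golgi. Spliced XBP1 and cut ATF6 then raise chaperone and ERAD genes.

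Those factors are known to act through the ER stress response element, ERSE, which is CCAAT and CCACG with 9 bases between them, and its variant ERSE-II, which is ATTGG and CCACG with 1 base between them. Promoter windows of 300 bases (250 before and 50 after 1 start site per gene, RefSeq, GRCh38.p14) were found for 31 of the 35 genes (all but PDIA3, DERL1, DERL3 and SPCS1) and searched on both strands. For CANX, PDIA4, PDIA6, DERL2, EIF2AK3 and XBP1 the start site used lies inside the annotated gene, not at its outer end. Other start sites of these genes were not searched. ERSE lay in 7 of the 31 windows (22.6%), against 27 of all 35116 windows (0.0769%). ERSE-II lay in 3 (9.68%), against 19 of all windows (0.0541%). The list was chosen to hold chaperone and ERAD genes, which those factors are known to raise. The higher shares thus follow from the choice of genes and are not a separate result. The elements are shown because they are a sequence feature that 10 of the genes share, while their transcripts, as given below, did not move together. Each is written 5′ to 3′ in the direction of its gene, with the 2 fixed parts in capitals; an element on the other strand reads CGTGG first. The site in HYOU1 farther from the start overlaps a match to TGACGTGG, the UPRE bound by spliced XBP1, which 1 of the 31 windows (3.23%) and 0.729% of all windows hold. The element TGATGNAA, which ATF4 binds, lay in the HERPUD1 window alone (3.23%, against 3.62% of all windows) and overlapped no other match.
HSPA5, chr9:125241391-125241409, gene on the minus strand: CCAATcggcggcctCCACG
HSP90B1, chr12:103930216-103930234, plus: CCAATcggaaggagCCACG
HSP90B1, chr12:103930321-103930339, plus: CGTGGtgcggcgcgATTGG
CALR, chr19:12938384-12938402, plus: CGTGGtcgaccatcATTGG
CANX, chr5:179698778-179698796, plus: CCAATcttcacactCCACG
CRELD2, chr22:49918554-49918572, plus: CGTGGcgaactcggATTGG
PDIA6, chr2:10812853-10812871, minus: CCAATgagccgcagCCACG
ERO1B, chr1:236282183-236282201, minus: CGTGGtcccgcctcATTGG
HYOU1, chr11:119057380-119057390, minus: CGTGGtCCAAT
HYOU1, chr11:119057274-119057284, minus: CGTGGtCCAAT
SDF2L1, chr22:21642114-21642124, plus: CGTGGaCCAAT
HERPUD1, chr16:56932025-56932035, plus: ATTGGgCCACG

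HSPA5 and CRELD2 both hold an ERSE within the 100 bases before their start, and their transcripts moved in opposite directions in the knockdown. HSP90B1 and PDIA6 also hold an ERSE there, and HYOU1 an ERSE-II. Of these, PDIA6 was higher, while HSP90B1 and HYOU1 did not pass. The stretches of HSPA5 and CRELD2 are printed with the element's fixed parts in capitals.
HSPA5, chr9:125241344-125241443, minus strand: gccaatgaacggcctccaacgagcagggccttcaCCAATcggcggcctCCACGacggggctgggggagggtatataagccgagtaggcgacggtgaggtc
CRELD2, chr22:49918534-49918633, plus strand: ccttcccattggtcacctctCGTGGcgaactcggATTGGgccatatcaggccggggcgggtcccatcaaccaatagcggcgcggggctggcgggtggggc

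The libraries held 16606947 to 23300433 counts, so 1 CPM (counts per 1e+06, on library sizes scaled by TMM) rests on 16.6 to 23.3 counts. RRM2 itself (Gene ID 6241) was at 204, 192 and 203 CPM in shNC and at 40.5, 40.7 and 39.5 CPM in shRRM2. The groups lay far apart, and the knockdown kept 0.202 of the control level (log2 −2.31, SE 0.0443, edgeR adjusted p = 3.72e-29). Libraries of 1 group differed by more than sampling noise (chi-square per degree of freedom 2.20 to 3.69), so none was counted as a repeat of another. The ductal list (6 of 7 tested, with KRT8, KRT18, KRT7 and MUC1 present) summed to 2941 to 3109 CPM in shNC and 4208 to 4257 CPM in shRRM2. Of the 6 tested, 5 were higher (83.3%, against 26.0% of all tested genes), and KRT7 was lower (−0.07, edgeR adjusted p = 0.0442). But the ductal keratin KRT19 had 0 to 6 counts per library, and the epithelial marker EPCAM had 3 to 16. Other marker lists were low or rested on 1 gene. None of 5 acinar and 4 endocrine markers was tested, and INS, GCG, PRSS1 and ALB had 0 counts. Of the plasma cell list, for a cell type rich in ER, JCHAIN and TNFRSF17 had 0 counts, and its 124 to 134 CPM in shNC and 147 to 154 CPM in shRRM2 were those of SDC1, which epithelial cells also express. The immune list (2 of 6 tested) summed to 28.2 to 29.5 CPM in shNC and 84.1 to 87.3 CPM in shRRM2, nearly all of it CD68, also a lysosomal protein, which was higher by 1.67 (adjusted p = 4.58e-22), while CD3E had 0 counts and PTPRC, the leukocyte marker, 0 to 3. Of the fibroblast list (2 of 8 tested), summing to 19.2 to 21.0 and 34.0 to 36.6 CPM, both tested members were higher: COL1A1 by 0.73 (adjusted p = 1.32e-09) and FAP by 2.78 (adjusted p = 1.33e-05) on the log2 scale. DCN and LUM had at most 10 counts in any library. The endothelial list (2 of 5 tested) summed to 1.54 to 1.65 and 4.92 to 5.60 CPM; VWF (2.45, adjusted p = 4.06e-06) and CDH5 (1.44, adjusted p = 8.14e-05) were higher, and KDR was at 0. Of the 4 hepatocyte markers, 1 was tested, and they summed to under 1 CPM in every library. Their part in the results was not tested.

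Of the 34 tested ER genes, 14 passed the threshold (adjusted p under 0.05, edgeR quasi-likelihood test, Benjamini-Hochberg over 15866 genes). This was 41.2% of them, against 52.1% of all tested genes. Higher in shRRM2 were 7 (20.6%, against 26.0% of all genes) and lower were 7 (20.6%, against 26.1%). With library size alone in place of TMM scaling the split was 8 higher and 5 lower. A log2 fold change of at least 0.3 in size with a passing p was seen for 8 genes (23.5%, against 33.9% of all genes), and for 18 (52.9%, against 57.8%) the CPM ranges of the groups lay apart. The median size of the log2 fold change was 0.096 for these genes and 0.26 for all tested genes, and the signed medians were −0.04 and −0.01. The median level in shNC was 72.9 CPM for these genes and 22.4 CPM for all tested genes. The part of level in the sizes and shares was not tested. Together the 35 genes took 0.759 to 0.769% of the raw counts in shNC and 0.784 to 0.794% in shRRM2. Relative to the TMM-scaled library sizes used for CPM the ranges overlapped, 0.767 to 0.787% in shNC and 0.772 to 0.789% in shRRM2. Single genes went both ways.

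**Figure D1:**
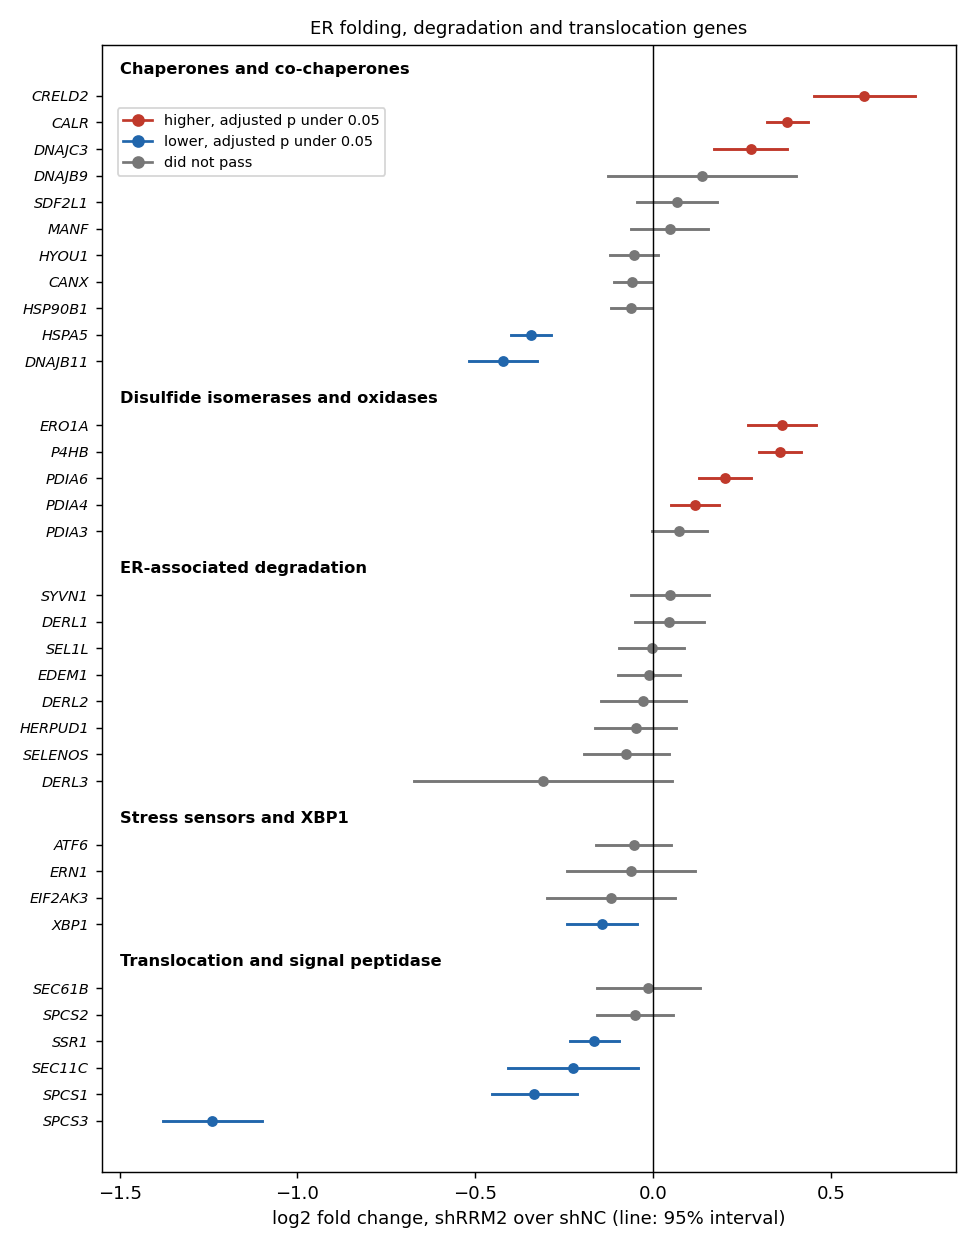
Log2 fold change of shRRM2 over shNC (horizontal axis) for the 34 tested ER genes, grouped by role, with 95% intervals as lines; red genes were higher, blue genes lower, and grey genes did not pass. SPCS3 stands alone at −1.24, the points of the 5 tested isomerase and oxidase genes lie to the right of 0 (PDIA3, in grey, did not pass), and the 8 degradation genes are all grey.

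Of the 11 tested chaperones and co-chaperones, 3 were higher (27.3%, against 26.0% of all tested genes) and 2 lower (18.2%, against 26.1%). The share that passed was 45.5%, near the 52.1% of all tested genes. BiP, encoded by HSPA5, is the main Hsp70 chaperone of the ER and holds the stress sensors inactive. HSPA5 (Gene ID 3309, chromosome 9, 125234853 to 125241343, GRCh38.p14) was at 1395, 1312 and 1337 CPM in shNC and at 1075, 1068 and 1043 CPM in shRRM2. Every shRRM2 library lay below every shNC library, and the fitted difference was −0.34 on the log2 scale (SE 0.0279, adjusted p = 2.11e-12), or 0.788 of the control level. DNAJB11, a co-chaperone that brings unfolded clients to BiP, was at 103, 108 and 100 CPM in shNC and at 75.0, 81.4 and 76.4 CPM in shRRM2, again without overlap (−0.42, SE 0.0470, adjusted p = 3.07e-09). DNAJC3, another BiP co-chaperone and an inhibitor of eIF2alpha kinases, moved the other way, from 68.5 ± 1.63 to 82.8 ± 4.41 CPM (SD, n = 3 each), or 0.27 on the log2 scale (SE 0.0502, adjusted p = 2.31e-05).

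Calreticulin and calnexin bind the same monoglucosylated glycoproteins, the first in the ER lumen and the second in its membrane. CALR was at 955, 950 and 923 CPM in shNC and at 1209, 1274 and 1188 CPM in shRRM2. All shRRM2 libraries were above all shNC libraries (log2 fold change 0.38, SE 0.0287, adjusted p = 4.82e-13). CANX was at 1389 ± 16.3 and 1334 ± 16.9 CPM (SD, n = 3 each), and its difference of −0.06 did not pass (95% interval −0.11 to −0.01, adjusted p = 0.0602); with limma-voom it did (adjusted p = 0.0206). The highest relative rise in the list was that of CRELD2, a secreted protein induced by ER stress, at 26.0, 27.1 and 26.7 CPM in shNC and 41.8, 40.6 and 38.1 CPM in shRRM2 (0.59, SE 0.0696, adjusted p = 8.69e-09). The shRRM2 libraries of CRELD2 were thus 1.51-fold higher by the fit, with no overlap.

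The other 5 chaperones did not pass. HSP90B1 (GRP94, the Hsp90 of the ER) was at −0.06 (95% interval −0.12 to −0.00, adjusted p = 0.0723); leaving out shNC replicate 2 gave −0.09 and a call (adjusted p = 0.0178). HYOU1, the nucleotide exchange factor of BiP, was at −0.05 (−0.12 to 0.01), and MANF, a secreted cofactor of BiP, at 0.05 (−0.06 to 0.15). SDF2L1, which works with DNAJB11 on BiP clients, was at 0.07 (−0.05 to 0.18); it was called at 0.14 (adjusted p = 0.0398) once shNC replicate 1 was left out, the library where it stood highest in shNC at 77.1 CPM against 67.0 and 65.1. DNAJB9, a co-chaperone that represses IRE1, was low, at 8.73 ± 0.423 and 9.57 ± 1.17 CPM, and its interval of −0.13 to 0.40 is wide.

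Among the tested ER genes with an ERSE or ERSE-II in the window, CALR, CRELD2 and PDIA6 were higher, HSPA5 was lower, and HSP90B1, HYOU1, SDF2L1, CANX and HERPUD1 did not pass. Thus 4 of the 9 (44.4%) passed, near the 52.1% of all tested genes; ERO1B, the tenth gene with an element, was too low to test.

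**Figure D2:**
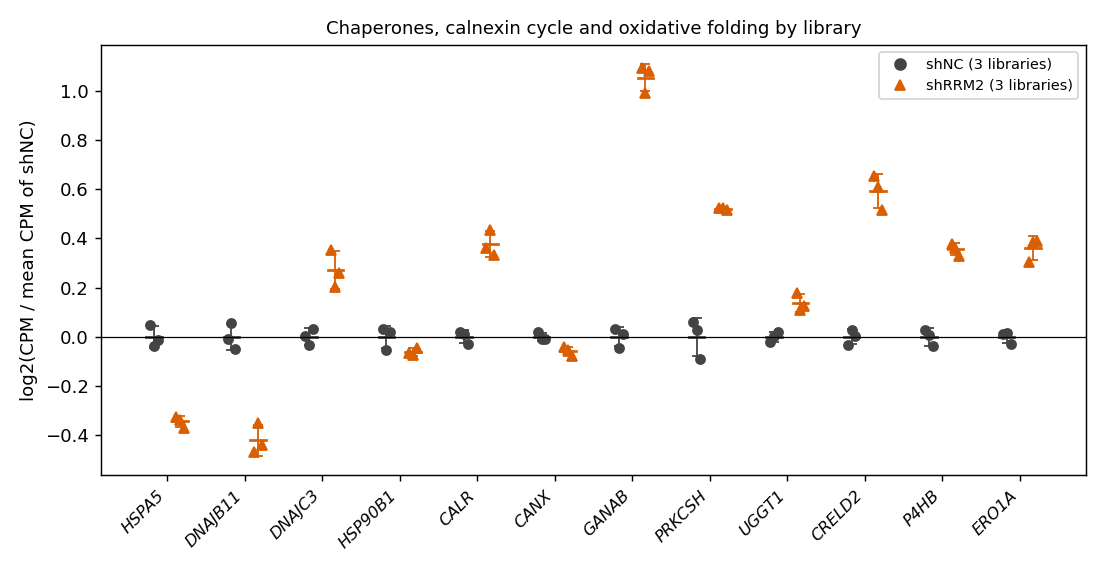
CPM of 12 folding genes in each library relative to the shNC mean on a log2 scale (vertical axis); circles are shNC, triangles shRRM2, with the mean and SD of 3 libraries. HSPA5 and DNAJB11 lie below 0 in all 3 shRRM2 libraries, while CALR, CRELD2, P4HB, ERO1A and the glucosidase II subunits GANAB and PRKCSH lie above it.

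Levels were also divided by the exon length of each gene, the union of exons over all its annotated transcripts. This length can exceed that of the mRNA present, so an order of different genes on this scale depends on the annotation. Per kilobase of this length, HSPA5 and CALR stood level in shNC, at 345 ± 11.0 and 347 ± 6.37 CPM per kilobase. In shRRM2 they stood at 272 ± 4.22 and 451 ± 16.5. CANX followed at 223 ± 2.62 in shNC and HSP90B1 at 185 ± 5.78, then P4HB at 121 ± 2.93 (all SD, n = 3). On this scale HSPA5 thus went from level with CALR to below it, while staying above CANX, which was at 214 ± 2.71 in shRRM2. The lowest tested levels in shNC on this scale were those of DERL3 and ERN1, at 1.42 ± 0.222 and 1.84 ± 0.0914 CPM per kilobase.

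Ratios of read counts within a library do not depend on library scaling. The log2 ratio of CALR to CANX was −0.56, −0.54 and −0.58 in shNC and −0.16, −0.07 and −0.15 in shRRM2, a difference of 0.43. That of HSPA5 to HSP90B1 was 0.65, 0.65 and 0.60 in shNC and 0.37, 0.37 and 0.31 in shRRM2, a difference of −0.28. The ratio ranges of the groups did not overlap for either pair. They were narrowly apart for SEC11C to SEC11A, the alternative catalytic subunits of signal peptidase (−1.84 ± 0.0861 and −2.05 ± 0.0520), and for DERL1 to DERL2 (0.70 ± 0.0337 and 0.78 ± 0.0510; SD, n = 3 each). For SEL1L to SYVN1 (means 0.83 ± 0.108 and 0.78 ± 0.0821) and ATF6 to ATF6B (−0.25 ± 0.122 and −0.16 ± 0.0757) they overlapped. With 3 libraries against 3 an exact permutation test cannot go below p = 0.1, so these ratios are given without a test.

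**Figure D3:**
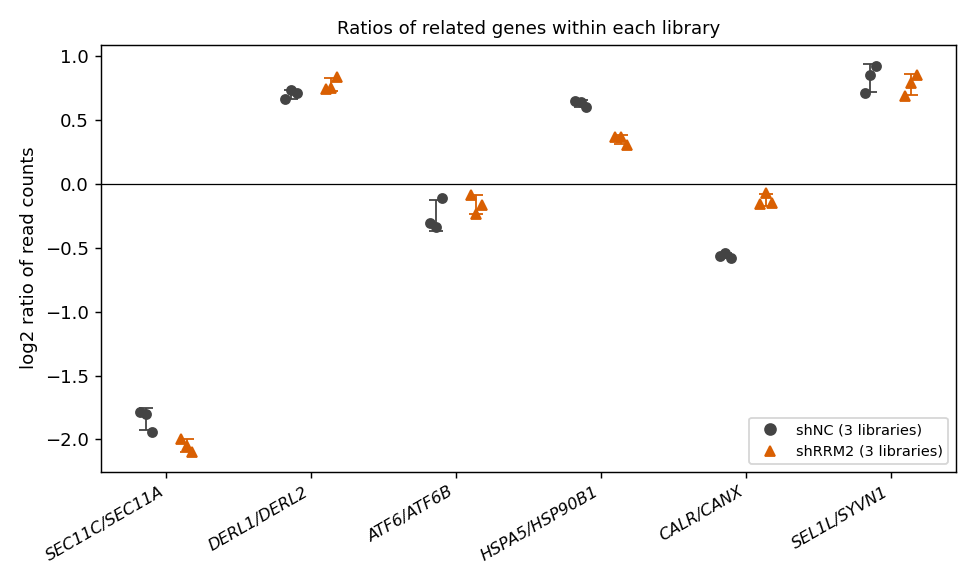
Log2 ratio of the read counts of 2 related genes in each library (vertical axis) for 6 pairs; circles are shNC, triangles shRRM2, with the SD of 3 libraries. The pairs HSPA5/HSP90B1 and CALR/CANX show the widest gaps between the groups, −0.28 and 0.43, while SEL1L/SYVN1 and ATF6/ATF6B overlap.

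Of the 6 disulfide isomerase and oxidase genes, 5 were tested, of which 4 rose and 0 fell (80.0% higher, against 26.0% of all tested genes). Protein disulfide isomerases form and reshuffle disulfide bonds, and the ERO1 oxidases recharge them. P4HB, the classical isomerase and also a subunit of the collagen prolyl hydroxylase, was at 653, 644 and 623 CPM in shNC and at 832, 822 and 805 CPM in shRRM2 (log2 fold change 0.36, SE 0.0286, adjusted p = 1.75e-12). The oxidase ERO1A, which is also induced by hypoxia, was at 72.6, 72.7 and 70.6 CPM in shNC and 89.0, 94.1 and 94.4 CPM in shRRM2 (0.36, SE 0.0469, adjusted p = 6.42e-08). In both genes every shRRM2 library was above every shNC library.

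PDIA6, which also acts on IRE1, rose by 0.20 (SE 0.0356, adjusted p = 1.34e-05) and PDIA4 by 0.12 (SE 0.0331, adjusted p = 0.00352). PDIA3, the partner of calnexin and calreticulin, was at 0.07 (95% interval −0.00 to 0.15, adjusted p = 0.105); it passed with library size alone (0.11, adjusted p = 0.0112) and without shRRM2 replicate 3 (0.11, adjusted p = 0.0294). Reads of PDIA3 may be shared with its processed copy PDIA3P1, which was counted at 149 ± 4.30 and 152 ± 4.20 CPM beside 200 ± 5.69 and 210 ± 11.4 CPM for PDIA3 (SD, n = 3 each). ERO1B, the second oxidase, stayed below the filter, with counts of 3, 5 and 2 in the control and of 2, 2 and 0 in the knockdown.

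None of the 8 ERAD genes passed the edgeR test, against 52.1% of all tested genes, and at an unadjusted p under 0.05 the count was also 0, against 57.0% of all tested genes. DESeq2 and limma-voom called 0 of them as well. HRD1 (SYVN1) is the ubiquitin ligase of the main ERAD complex and SEL1L its partner; SYVN1 was at 58.5, 57.1 and 54.7 CPM in shNC and 60.2, 58.6 and 57.1 CPM in shRRM2, and SEL1L at 101 ± 4.35 and 101 ± 3.08 CPM (SD, n = 3 each). The 95% intervals were −0.06 to 0.16 for SYVN1 and −0.10 to 0.09 for SEL1L. EDEM1, which helps extract glycoproteins from the folding cycle, had an interval of −0.10 to 0.08. HERPUD1, a scaffold of the ligase complex and a target of the unfolded protein response, was at 51.0, 50.1 and 51.7 CPM in shNC and at 49.5, 48.3 and 49.8 CPM in shRRM2 (−0.16 to 0.06), with the ranges just apart.

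The derlins are rhomboid-like membrane proteins of the export channel. DERL1 and DERL2 had intervals of −0.05 to 0.14 and −0.15 to 0.09. SELENOS, which links derlins to the p97 ATPase, had one of −0.20 to 0.05. DERL3, a stress-induced derlin of secretory cells, was at 4.33 ± 0.708 CPM in shRRM2 and 5.41 ± 0.843 CPM in shNC, and its interval of −0.67 to 0.05 leaves its direction undetermined at this depth. Exons of SMARCB1 on the opposite strand cover 77.0% of DERL3's annotated exon bases. For SEL1L, EDEM1 and DERL2 the sign of the difference depended on the setting.

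The stress sensors showed small differences. ERN1, the IRE1 kinase and endonuclease, was at 19.0, 20.0 and 21.0 CPM in shNC and at 19.1, 19.3 and 19.0 CPM in shRRM2 (log2 fold change −0.06, 95% interval −0.24 to 0.12). EIF2AK3, encoding PERK, was at 20.8, 20.0 and 20.1 CPM in shNC and 19.3, 17.7 and 19.1 CPM in shRRM2 (−0.12, −0.30 to 0.06, adjusted p = 0.271). ATF6 was at 79.7, 74.7 and 84.4 CPM in shNC and 79.5, 73.1 and 76.9 CPM in shRRM2 (−0.05, −0.16 to 0.05). The ranges overlapped for ERN1 and ATF6, while those of EIF2AK3 did not.

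XBP1, the transcription factor made from IRE1-spliced mRNA, was at 80.9, 80.9 and 76.8 CPM in shNC and at 70.4, 74.3 and 71.3 CPM in shRRM2, without overlap (−0.14, SE 0.0485, adjusted p = 0.0124). The call was lost with library size alone (−0.11, adjusted p = 0.0617), without shRRM2 replicate 1 (−0.13, adjusted p = 0.0580) and without shRRM2 replicate 3 (−0.13, adjusted p = 0.0514). Gene counts do not separate spliced from unspliced XBP1 mRNA, and they hold no protein or phosphorylation state of the sensors.

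Of the 26 other genes of stress signalling on the list, 25 were tested. Of these 7 were higher (28.0%, against 26.0% of all tested genes) and 10 lower (40.0%, against 26.1%). Site-2 protease (MBTPS2), which completes the release of ATF6 from the membrane, fell from 53.7 ± 2.99 to 31.4 ± 0.852 CPM (SD, n = 3 each; −0.77, SE 0.0638, adjusted p = 3.84e-12). Site-1 protease (MBTPS1), chosen after its value was seen, was at −0.09 (adjusted p = 0.0786), and passed only without shNC replicate 3 (−0.11, adjusted p = 0.0485). ATF6B, the paralog of ATF6, was at −0.14 (adjusted p = 0.00882), a call lost with library size alone (0.0504) and without shNC replicate 1 (adjusted p = 0.0576). EIF2S1, which encodes eIF2alpha, was lower at −0.30 (adjusted p = 1.86e-08).

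The named transcripts tied to PERK signalling moved in different directions, and the activity of PERK was not measured. ATF4 was at 150, 149 and 139 CPM in shNC and 106, 117 and 112 CPM in shRRM2 (−0.39, adjusted p = 2.42e-09). CHAC1, a glutathione-degrading enzyme induced by ATF4, was at 4.29, 6.33 and 5.10 CPM in shNC and 13.7, 14.5 and 15.1 CPM in shRRM2 (1.45, adjusted p = 7.95e-11). The stress factor ATF3 rose from 12.0 ± 0.579 to 25.1 ± 2.04 CPM and PPP1R15A, which brings the phosphatase to eIF2alpha, from 22.8 ± 2.18 to 31.9 ± 0.442 CPM (SD, n = 3 each). DDIT3 (CHOP), the factor tied to cell death in prolonged ER stress, was at 7.37, 6.42 and 5.35 CPM in shNC and 7.35, 6.65 and 8.01 CPM in shRRM2, with overlap (0.20, adjusted p = 0.282). WFS1, an ER membrane protein, rose by 0.40 (adjusted p = 1.42e-08).

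**Figure D4:**
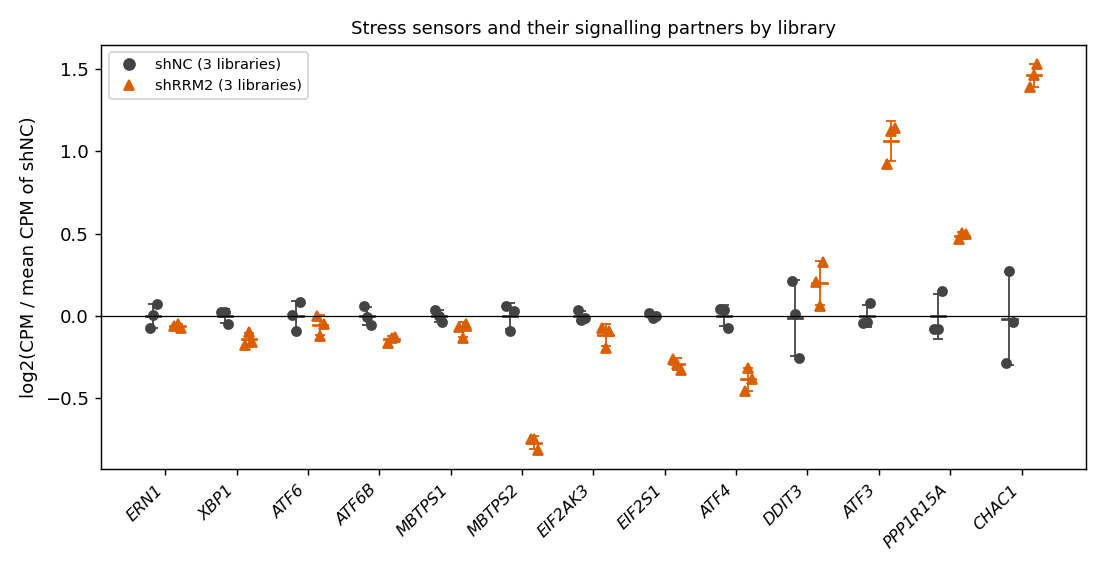
CPM of the stress sensors, XBP1 and 9 signalling partners in each library relative to the shNC mean on a log2 scale (vertical axis). Circles are shNC and triangles shRRM2, with the mean and SD of 3 libraries. ERN1, ATF6 and EIF2AK3 stay near 0, MBTPS2 and ATF4 lie below it in all 3 shRRM2 libraries, and ATF3, PPP1R15A and CHAC1 lie above it.

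The genes of translocation and signal peptide cleavage held the largest single change. The signal peptidase complex joins a catalytic subunit, SEC11A or SEC11C, with SPCS1, SPCS2 and SPCS3, of which SPCS3 is needed for activity. SPCS3 (Gene ID 60559, chromosome 4, 176319966 to 176332245) was read 1033, 1303 and 929 times in the shNC libraries and 413, 531 and 409 times in the shRRM2 libraries. In CPM these were 59.0, 56.5 and 56.4 against 23.4, 26.7 and 22.6. The groups lay far apart compared with the spread inside each. The fitted log2 fold change of −1.24 (SE 0.0682, 95% interval −1.38 to −1.10, adjusted p = 1.40e-16) put shRRM2 at 0.424 of the control. It ranked 103 from the lowest of the 15866 log2 fold changes and was the only ER gene of the 34 past a size of 1.

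The other subunits differed less. SPCS1 was at 57.6, 56.2 and 52.7 CPM in shNC and at 44.1, 45.6 and 42.4 CPM in shRRM2 (−0.33, SE 0.0585, adjusted p = 1.18e-05). Of its annotated exon bases, 58.1% are shared with genes on the opposite strand, GLT8D1 and NEK4. GLT8D1 was lower by a similar amount (−0.33, adjusted p = 0.000163) and NEK4 was at −0.15 (adjusted p = 0.152; 0.0470 without shRRM2 replicate 2); without a stated strand setting for the counting, reads of SPCS1 and GLT8D1 cannot be told apart. SPCS2 was at 73.9 ± 3.21 and 71.2 ± 4.34 CPM (−0.05, interval −0.16 to 0.06), and SEC11A at 82.8 ± 3.86 and 81.6 ± 7.26 CPM (−0.02, −0.13 to 0.09; SD, n = 3 each).

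SEC11C was at 24.9, 22.5 and 21.9 CPM in shNC and 19.7, 21.6 and 17.8 CPM in shRRM2, just apart (−0.23, SE 0.0901, adjusted p = 0.0356). That call was lost with library size alone (adjusted p = 0.0789), with DESeq2 (0.0736), without shNC replicate 1 (0.163) or 2 (0.0561), and without shRRM2 replicate 1 (0.0734) or 3 (0.208). Per kilobase of the union of annotated exons, SPCS3 was at 8.39 ± 0.216 in shNC, where SPCS1 was at 10.4 ± 0.471. In shRRM2 SPCS3 was at 3.55 ± 0.322 and SEC11C at 4.37 ± 0.428 (SD, n = 3 each). The order of these genes depends on the annotated lengths.

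SSR1 is a subunit of TRAP, the complex that assists some signal sequences at the Sec61 channel. It averaged 288 ± 8.61 CPM in the control and 257 ± 4.10 CPM in the knockdown (SD, n = 3 each; −0.17, SE 0.0333, adjusted p = 8.57e-05). Of the remaining TRAP subunits, SSR3 was lower at −0.32 (adjusted p = 6.86e-10), while SSR2 and SSR4, chosen after their values were seen, were higher at 0.19 (adjusted p = 4.70e-05) and 0.12 (adjusted p = 0.00686); without shNC replicate 2 the call of SSR4 was lost (adjusted p = 0.0564). SEC61B, the beta subunit of the channel, was at 61.1, 67.1 and 55.4 CPM in shNC and 56.6, 67.3 and 58.5 CPM in shRRM2, fully overlapping (−0.01, interval −0.16 to 0.13). Its channel-forming partner SEC61A1 was at −0.08 (adjusted p = 0.0323). The call of SEC61A1 was lost with library size alone (adjusted p = 0.273), with a filter of 1 CPM (0.0530), with DESeq2 (0.0505), and without shNC replicate 1 (0.0575) or 3 (0.110) or shRRM2 replicate 2 (0.0776) or 3 (0.154).

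**Figure D5:**
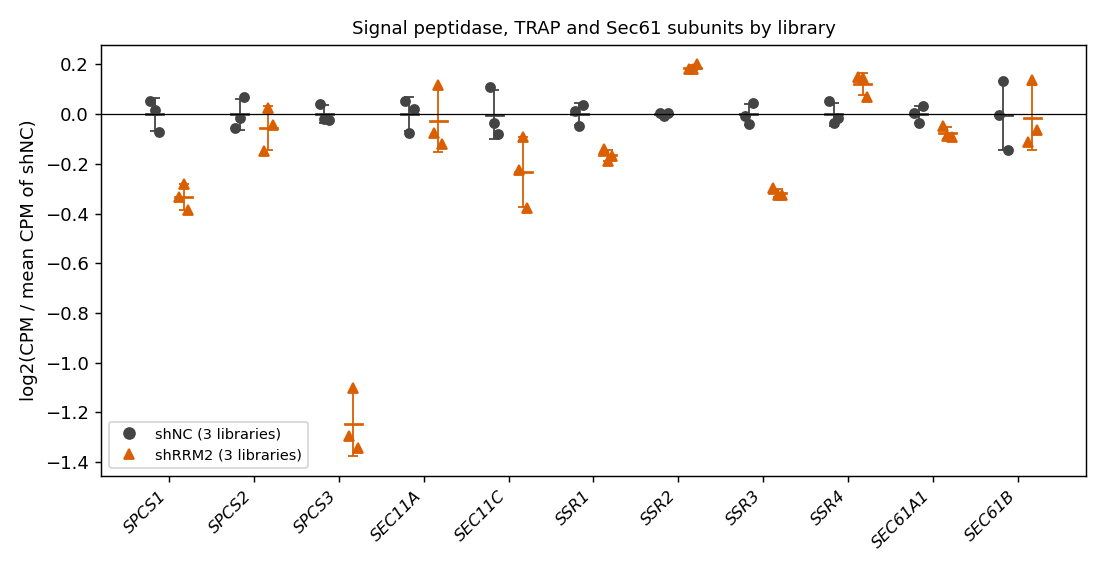
CPM of signal peptidase, TRAP and Sec61 subunits in each library relative to the shNC mean on a log2 scale (vertical axis); circles are shNC, triangles shRRM2, with the mean and SD of 3 libraries. SPCS3 lies more than 1 below the control in all 3 shRRM2 libraries, and the TRAP subunits divide, with SSR1 and SSR3 lower and SSR2 and SSR4 higher.

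DNAJB11 shares exon bases with neighbours as well, 23.2% of them, and TBCCD1 on the opposite strand was lower by a similar amount (−0.43, adjusted p = 0.00166) from 15.0 ± 1.13 CPM, a small level beside the 104 ± 3.95 CPM of DNAJB11 (SD, n = 3 each). For 15 of the 35 genes, HSPA5, DNAJC3, XBP1 and SEC11C among them, no exon base is shared with another annotated gene, and SPCS3 shares 4.60%.

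The wider ER list held 120 further genes, of which 115 were tested, 43 higher and 32 lower. That is 65.2% called, against 52.1% of all genes and 41.2% of the 35-gene list. By size the wider list changed less than all tested genes. The median size of the log2 fold change was 0.19, against 0.26 for all tested genes. A passing log2 fold change of at least 0.3 in size was seen for 24.3%, against 33.9%. The median level in shNC was 74.9 CPM here and 22.4 CPM over all tested genes, and its part in the share called and in the sizes was not tested. Of 31 other folding genes, 16 rose (51.6%, against 26.0% of all tested genes) and 6 fell (19.4%, against 26.1%). The 2 subunits of glucosidase II, which trims glycoproteins into and out of the calnexin and calreticulin cycle, rose. GANAB, the catalytic one, was at 310, 295 and 306 CPM in shNC and 647, 604 and 642 CPM in shRRM2 (1.06, SE 0.0324, adjusted p = 1.76e-23). The regulatory PRKCSH rose by 0.52 (adjusted p = 2.49e-14). UGGT1, which sends misfolded glycoproteins back into that cycle and was chosen after its value was seen, rose by 0.14 (adjusted p = 0.000401). The sulfhydryl oxidase QSOX1 rose by 0.60 (adjusted p = 3.24e-14), while the thioredoxin-related TMX1 and TMX2 and the J-protein DNAJB12 were lower at −0.24, −0.27 and −0.26.

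Other degradation genes did pass. Of 27 tested, 12 were higher (44.4%, against 26.0% of all tested genes) and 8 lower (29.6%, against 26.1%). Among the higher ones were OS9, a lectin that hands glycoproteins to SEL1L, at 0.44 (adjusted p = 1.50e-12), ERLIN1 at 0.40 and the p97 cofactor NPLOC4 at 0.28. The conjugating enzyme UBE2G2 was lower at −0.35 (adjusted p = 5.62e-08), the deglycosylase NGLY1 at −0.31 and the lectin ERLEC1 at −0.22. Of 32 other genes of translocation and glycan transfer, 8 were higher and 8 lower, or 50% called, near the 52.1% of all tested genes. STT3B, a catalytic subunit of oligosaccharyltransferase, was lower at −0.43 (adjusted p = 1.35e-11) and the translocation factor TRAM1 at −0.35. The oligosaccharyltransferase subunits RPN2 and OSTC were higher at 0.19 and 0.30, and SRP14, of the signal recognition particle, at 0.21.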

How the data were processed

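RNA from 6 PANC-1 libraries (3 shNC, 3 shRRM2) was sequenced by the authors. The authors deposited 1 table of raw read counts, in whole numbers, for genes named by NCBI Gene ID. Fastp 0.23.4, featureCounts and hg38 were used per the submitters' processing notes; no aligner, annotation release or strand setting is named there. Columns named si-RRM2 were matched to the shRRM2 samples by gene and number. Symbols and positions came from RefSeq (GRCh38.p14) for 40120 of 42902 IDs; unmatched IDs, with 1.25% of counts, stayed in the fit. Exon lengths (the union over all transcripts of a gene) and overlaps came from GENCODE 29 (GRCh38).

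Genes passing edgeR's filterByExpr (15866) were scaled by TMM and tested with edgeR 4.0.16 in R 4.3.3 (robust quasi-likelihood, group alone, two-sided, Benjamini-Hochberg, threshold 0.05). SE was derived from the fold change and the F statistic (size over root F). CPM of a gene is its count over the scaled library size. The test code was run on simulated counts with far fewer changed genes than were called here. That run does not show how scaling or error rates behave at the share of genes called here. Alternatives were RLE factors, library size alone, 2 other filters, DESeq2 1.42.0, limma-voom (limma 3.58.1), a replicate block, an adjusted p of 0.01 and leaving out each library. The ratio of ERO1A to ERO1B was planned and not computed, since ERO1B has a count of 0. The genes and lists were chosen with earlier results of these data known. Values of every library are given for RRM2, the 3 sensors, XBP1, HSPA5, members that passed with a log2 fold change of 0.3 or more in size and members below the filter; from each wider list the genes with the 3 smallest adjusted p in each direction are named, with ATF4, DDIT3, PPP1R15A, ATF6B, SEC61A1 and SEC11A whatever their values.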

Additional observations from a re-analysis of the deposited data

How the results depend on the processing

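Of the 14 ER genes that passed, 12 did so under every alternative; XBP1 and SEC11C did not, as given above, and neither passed an adjusted p of 0.01. Counts of the 35-gene list ran from 7 to 8 higher and 5 to 7 lower without 1 library. Signs changed for genes near 0. With library size alone the log2 fold change of SEL1L was 0.0328, that of EDEM1 0.0256, of DERL2 0.0097, of SEC61B 0.0241 and of SEC11A 0.0189. SEL1L was at 0.0041 with a filter of 1 CPM in 3 libraries. Without 1 library they ranged from −0.0428 to 0.0214 (SEL1L), −0.0403 to 0.0172 (EDEM1), −0.0447 to 0.0011 (DERL2), −0.0899 to 0.0599 (SEC61B) and −0.0894 to 0.0363 (SEC11A). None of these was called in any of those settings; the cause was not tested. RLE factors, no filter and the replicate block changed no call of the 35 genes. The block gave 7 higher and 7 lower. The labels do not say that a number marks a shared culture, and the deviations of same-numbered libraries correlated at −0.01, −0.01 and −0.02, so no pairing was used. Depth limits DERL3, DNAJB9 and ERO1B, and DDIT3 of the wider list, at under 11 CPM in every library.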
